A study of Mus musculus with 9 samples.

Results

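The comparison set 2 alphaTC1 libraries made after knockdown of Smndc1 against 2 alphaTC1 libraries made after an empty vector, which are 4 of the 9 samples of the series. All 4 are chromatin immunoprecipitations with an antibody against histone H3 trimethylated at lysine 9 (H3K9me3). AlphaTC1 is a murine glucagon-producing pancreatic alpha cell line. The knockdown cells carried short hairpin RNAs against Smndc1 and the control cells an empty vector, and both were collected 5 days after transduction. The members are all 17641 windows of the deposited table, each 401 bp wide with few exceptions and each assigned to its nearest gene. The other samples are 3 inputs and 2 libraries of the beta cell line betaTC3, which entered only 1 alternative. Whether replicates are separate cultures is not stated in the labels, and all p-values therefore refer to the variation among these libraries, which may be technical. With 2 against 2, an exact permutation test of a single window cannot go below a two-sided p of 0.333.

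SMNDC1 is a Tudor domain protein related to the survival motor neuron protein and takes part in spliceosome assembly. H3K9me3 is laid down by methyltransferases such as SUV39H1, SUV39H2 and SETDB1, is bound by HP1 proteins, and is best known from repeats, pericentromeric chromatin and silent gene clusters. Pancreatic alpha cells are defined by glucagon, by its processing enzyme PC2 and by transcription factors such as IRX1 and IRX2.

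Summed over windows, empty-vector depth was 5983486 and 9224783 reads and knockdown depth 4530066 and 4800860. Values below are scaled reads, that is, whole reads multiplied by 1 factor per library, and where 2 pairs of values are set against each other the empty vector comes first. Of the 17641 windows, 11562 (65.5%) had a border within 1 kb of the start of the assigned gene, and the centre of these lay a median of 255 bp downstream of it. The windows of the libraries labelled H3K9me3 were thus mostly early in gene bodies. H3K9me3 is not the mark usually described at gene starts, and what this position means for the labelled mark was not tested. Values are therefore signal in the libraries so labelled. At the defining genes of islet cells the signal differed, which describes chromatin and does not establish the cell type. Gcg, the glucagon gene, held 340.3 and 352 scaled reads with the empty vector and Irx1 held 1152 and 1189.6, while the window at Ins1, an insulin gene, held 1.32 and 0. Pdx1, a beta cell factor, held 5.30 and 0 at its start. A window measures chromatin and not RNA, so the window at Smndc1 does not check the knockdown.

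Whole libraries differed first. The median of the log2 change over all windows, knockdown minus empty vector, was -0.37 on log2(scaled reads + 1). Between single libraries it was -0.46 and -0.53 for knockdown library 1 against the 2 empty-vector libraries, and -0.20 and -0.27 for knockdown library 2. The replicates differed by 0.05 for the empty vector and by 0.25 for the knockdown, so knockdown library 1 lay further down than knockdown library 2. The shift was not even over the windows. With the windows cut into 10 equal groups by mean level, it was 0 in group 1, the lowest, -0.16 in group 4, -0.33 in group 5, and between -0.40 and -0.44 from group 6 to group 10. The difference between the knockdown replicates also widened with level and reached 0.35 in group 10.

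**Figure D1:**
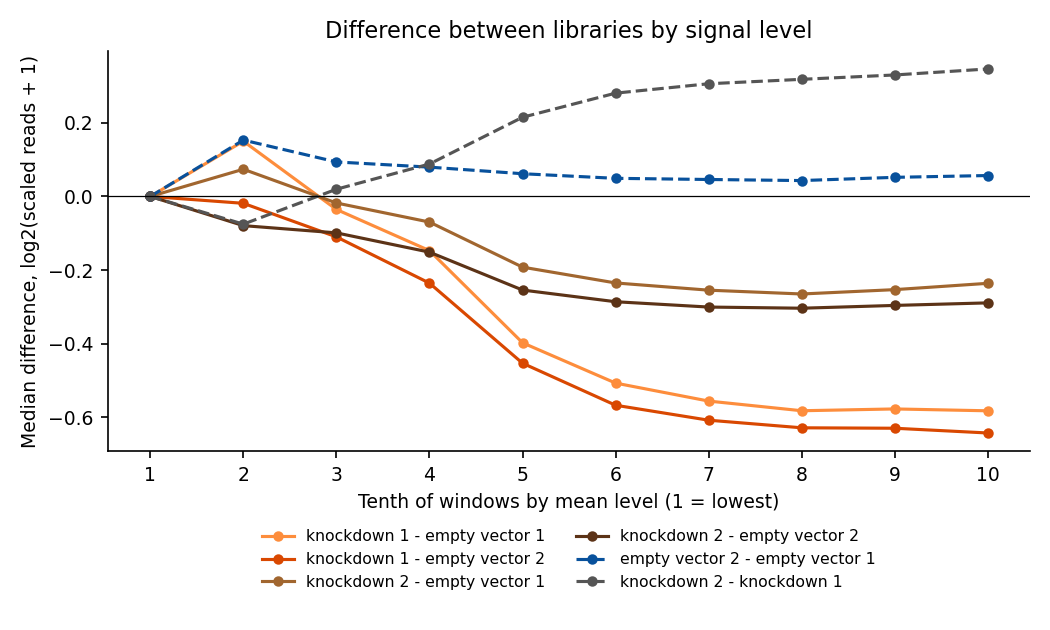
Median difference between single libraries in log2(scaled reads + 1) (y axis) for 10 groups of the 17641 windows ordered by mean level (x axis, 1 is the lowest). Solid lines are the 4 pairings of a knockdown with an empty-vector library and dashed lines the differences between replicates; the solid lines fall from 0 to between -0.24 and -0.64 in group 10, while the difference between the knockdown replicates rises to 0.35.

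Each library was therefore compared with windows of like level. From every library the smooth trend of its difference from the mean of the 4 libraries on that mean was subtracted, and what remained is called the level-matched value. A level-matched change of 0 is the change of the average window of that level, so a window can be level-matched higher while its scaled reads did not rise. Because the values are differences from a mean, those of the 4 libraries sum to about 0 in each window. The spread of replicates around their group, as a standard deviation (SD) of level-matched values, was 0.55 in group 1 and 0.05 in group 10. A window with no read in any library takes the trend value of the lowest level, 0.09, and is no evidence of a change.

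In the fit of all 17641 windows, limma called none at an adjusted p below 0.05 (0%), with a smallest adjusted p of 0.121 and 3141 windows at an unadjusted p below 0.05. On the deposited scale, with the shift left in, it called 31 windows (0.176%), 4 higher and 27 lower. Among the 14967 windows with a mean of at least 20 scaled reads, the level-matched fit called 730 (4.88%), 322 higher (2.15%) and 408 lower (2.73%). A count test by edgeR on the whole reads of all windows, with the level trends as offsets, called 1167 (6.62%), 555 higher and 612 lower. Of the 730 windows, 729 were among these with the same direction, and all 730 had the same sign in the 4 pairings of libraries. Neither is independent support for the calls. Both tests used the same 4 libraries and level trends of the same kind, and a call favours windows whose groups do not overlap. Below, called means called by limma among windows of at least 20 scaled reads, and each adjusted p is from that fit unless stated. Each SE printed after ± is from the fit of all windows, not from the fit that gave the adjusted p beside it. None of the called windows passed in the fit of all windows. The calls rested on how the spread was estimated, with 0 windows called when all 6 libraries entered the model or when no intensity trend was used. Without empty-vector library 1 the count was 106, without empty-vector library 2 389, and without knockdown library 2 1917, with a single library assumed to vary like the rest.

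Called windows were modest in size. The median level-matched change was 0.38 in log2 for the 322 higher windows and -0.47 for the 408 lower ones, and 21 and 85 of them exceeded a 2-fold change. Lower windows had a median level of 306 scaled reads and higher windows of 446, against 399 among all windows tested. Windows within 1 kb of a gene start made up 63.2% of the lower, 69.6% of the higher and 70.4% of all windows tested. Without regard to a test, both knockdown libraries lay above both empty-vector libraries, after level matching, in 4841 windows (27.4%) and below them in 4310 (24.4%).

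The gene of the islet microRNA miR-375 was among the 10 lower windows of smallest p. MiR-375 is abundant in islet endocrine cells and acts on hormone secretion. The window (chromosome 1, 74900492 to 74900892, mm10) covers the whole hairpin, which lies on the minus strand at 74900658 to 74900721. It is shown because the window contains it whole, with the 5p arm, miR-375-5p, in capitals (RefSeq, GRCm38.p6). The 5p arm is repeated with its seed, bases 2 to 8, in capitals. The other arm, miR-375-3p, is the better known product and is not printed.
mmu-mir-375 hairpin: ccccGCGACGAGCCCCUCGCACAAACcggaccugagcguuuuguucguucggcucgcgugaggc
mmu-miR-375-5p: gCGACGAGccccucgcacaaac

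At Mir375 the empty-vector libraries had 548 and 587 scaled reads and the knockdown libraries 223 and 281. The groups did not overlap, and both knockdown libraries were low. The level-matched change was -0.77 ± 0.074 in log2 (SE from the fit of all windows, n = 2 per group). Its adjusted p by limma was 9.16e-05, and 0.121 in the fit of all windows. Between the neighbouring gene Cryba2, which encodes a crystallin, and the end of that window the table has 4 windows over 7665 bp, of which 3 were called lower. The window 2649 bp from the start of Mir375 held 35.7 and 34.6 against 11.9 and 11.2 scaled reads (level-matched change -1.51, adjusted p = 0.0205 by limma). The one 2286 bp upstream of Cryba2 held 102 and 134 against 50.2 and 53.1 (-1.01, adjusted p = 0.00418 by limma). The window 85 bp from the start of Cryba2 held 47.7 and 51.5 against 54.9 and 60.1, so the low values did not extend to it (0.32, not called). The Cryba2 interval was singled out after its values were seen.

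A window assigned to Mir7-2, 5479 bp upstream of the gene of another islet microRNA, miR-7a, moved the other way and was likewise picked after its values were seen. The mature miR-7a-5p is given with its seed in capitals.
mmu-miR-7a-5p: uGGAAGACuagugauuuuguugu

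The Mir7-2 window (chromosome 7, 78882798 to 78883198) held 429 and 456 scaled reads in the empty-vector libraries against 449 and 498 after knockdown. Its level-matched change was 0.52 (adjusted p = 0.00190 by limma), and on the deposited scale the change was 0.10. Its knockdown library 1 lay below its empty-vector library 2 on the deposited scale, so there the groups overlap.

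The 10 lower windows of smallest p in the fit of all windows, with a mean of at least 50 scaled reads, were in genes of unlike function. Kcnh6, which encodes a voltage-gated potassium channel of the ERG family, held 874 and 885 scaled reads against 388 and 442 in the window 23 bp from its start (chromosome 11, 106008147 to 106008547). Its level-matched change was -0.64 ± 0.070 (adjusted p = 9.16e-05 by limma), and a second window 6021 bp into the gene was at -0.60 without being called. Arpin, an inhibitor of the Arp2/3 actin nucleator, held 579.9 and 600.1 against 257 and 302 (-0.67, adjusted p = 0.000230 by limma). A window 3695 bp into Ak1, an adenylate kinase, held 207 and 209 against 80.0 and 83.9 (-1.09, adjusted p = 0.000183 by limma). On the deposited scale both knockdown libraries lay below both empty-vector libraries in these windows, which was so in 11402 of all 17641 windows. Slc35b2, a Golgi transporter of the sulfate donor PAPS, and the small nucleolar RNA host gene Snhg17 held 1513 and 1498 against 762 and 966, and 1248 and 1285 against 637 and 773, with level-matched changes of -0.37 and -0.41. The other members of the 10 were noncoding or predicted genes, with -1.06 in the antisense gene D030047H15Rik, -0.90 at 2900060N12Rik, -0.84 at Gm13373 and -0.41 at Gm12043.

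The higher windows of smallest p mostly kept their scaled reads while windows of like level lost theirs. Rgs4, a regulator of G protein signalling, held 665 and 735 scaled reads against 731 and 849.7 (chromosome 1, 169746859 to 169747259). Its level-matched change was 0.62 ± 0.069 (adjusted p = 8.85e-05 by limma), while the change on the deposited scale was 0.17. Dlk2, a Notch ligand related protein, was higher on both scales, at 216 and 217 against 288 and 299 (0.79 level-matched and 0.44 as deposited, adjusted p = 0.000371 by limma). The pseudogene window Gm12034 behaved alike, with 318 and 331 against 388 and 409 (0.70, adjusted p = 0.000371 by limma). Plxna4, a semaphorin receptor, held 512 and 521 against 481 and 621 (0.52), and Hap1, a partner of huntingtin, 1245 and 1342 against 1188 and 1409 (0.44). Nuf2, a kinetochore protein, was at 0.37, Snai2, a zinc finger repressor, at 0.41, and a window 2802 bp upstream of Tac4, a tachykinin gene, at 0.58. Gcg and Irx1 complete the 10.

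**Figure D2:**
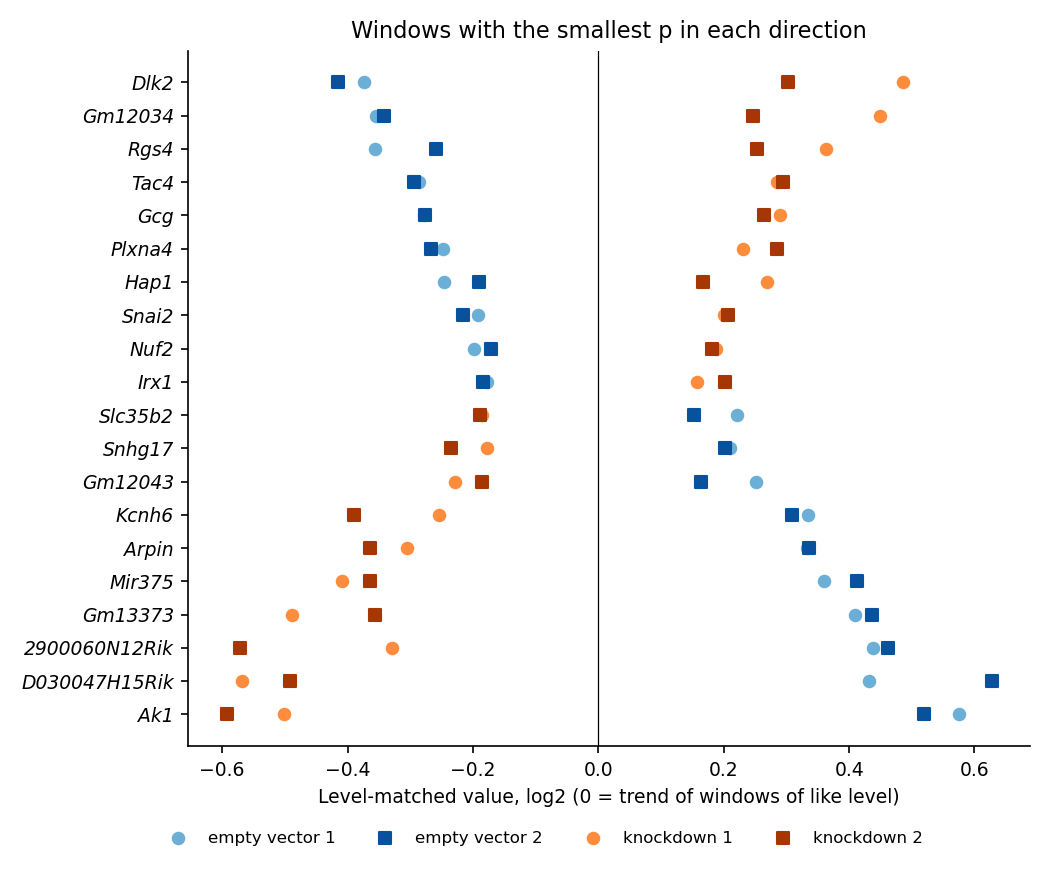
Level-matched values in log2 (x axis) of the 4 libraries in the 20 windows of smallest p, 10 per direction (y axis, by assigned gene); circles and squares are replicates 1 and 2. In each window both knockdown libraries lie on one side of 0 and both empty-vector libraries on the other, from Ak1 with a change of -1.09 to Dlk2 with 0.79, while all 20 have an adjusted p of 0.121 in the fit of all windows.

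Alpha cell identity genes were mostly level-matched higher. Of their 22 windows, assigned to 17 genes, 16 were above 0, among them 2 without a read (Tm4sf4 and Gc), and the median level-matched change was 0.11 against 0.00 over all windows. Of the 19 with at least 20 scaled reads, 4 were called higher (21.1% against 2.15% of all windows tested) and none lower by limma or edgeR, and their median was 0.13. The class medians in the 4 libraries were -0.11 and -0.07 for the empty vector and 0.02 and 0.15 for the knockdown, and without knockdown library 1 the median was 0.21. Gcg, measured 1929 bp from its annotated start inside the gene (chromosome 2, 62481721 to 62482121), held 340.3 and 352 against 352 and 421 scaled reads. Its level-matched change was 0.55 ± 0.072 (adjusted p = 0.00190 by limma). At Irx1 (chromosome 13, 71962784 to 71963184) the libraries held 1152 and 1189.6 against 969.9 and 1270.4 (0.36, adjusted p = 0.00140 by limma). Pcsk2, which encodes the prohormone convertase that releases glucagon, held 1029 and 1119 against 934 and 1096 (0.35, adjusted p = 0.00263 by limma), and Etv1, an ETS factor, was at 0.41 (adjusted p = 0.0248 by limma). On the deposited scale only Gcg, among these 4, had both knockdown libraries above both empty-vector libraries, by less than 1 scaled read.

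Irx2, a further alpha cell factor, was not called. It held 727 and 743 against 546 and 759 scaled reads, with a level-matched change of 0.25 (adjusted p = 0.0635 by limma). Peg3, which is also imprinted, had the lowest value of the class, at -0.48 (adjusted p = 0.191 by limma). Pax6 and Ins2 were not analysed here, since no window of the table was assigned to them.

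Pan-endocrine genes (37 windows) went in both directions, with a median of -0.02. Of the 33 tested, 4 were called higher (12.1% against 2.15% of all windows tested) and 2 lower (6.06% against 2.73%). Isl1, a LIM homeobox factor of all islet endocrine cells, was called at its start, with 796 and 850.5 against 653 and 847 scaled reads (0.30, adjusted p = 0.0199 by limma). A window 15819 bp from it, with 96.6 and 87.9 against 123 and 129, was called as well (0.65, adjusted p = 0.0278 by limma). Scg2, a granin of secretory granules, was at 0.40 (adjusted p = 0.00690 by limma). The fourth higher window lay 5118 bp from Foxa2, a pioneer factor, and held few reads, at 15.9 and 15.98 against 46.6 and 32.1 (adjusted p = 0.0389 by limma). Syt13, a synaptotagmin, and Vgf, a precursor of secreted peptides, were the lower ones, at -0.35 (adjusted p = 0.00973) and -0.82 (adjusted p = 0.0329 by limma). Neurod1 was at 0.26 without passing (adjusted p = 0.0691 by limma).

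Beta cell identity genes gave little to measure in this alpha cell line, since only 12 of their 30 windows held at least 20 scaled reads. Among those, Slc30a8, the zinc transporter of insulin granules, was called higher with 483 and 548 against 549 and 591 scaled reads (0.58, adjusted p = 0.000591 by limma). Alpha cells also express this transporter. Nkx6-1 held 1068 and 1129 against 698 and 952, a level-matched change of 0.01. A window 8604 bp from it held 14.6 and 11.5 against 27.5 and 26.6, at 1.02 without being called (adjusted p = 0.151 by limma). Kcnj11, a subunit of the ATP-sensitive potassium channel, was at -0.29 (adjusted p = 0.140 by limma). Ins1, Pdx1 and Mafa held 0 in both knockdown libraries in the windows nearest to their starts and at most 1.32, 5.30 and 11.9 with the empty vector, where 3 reads correspond to 2.66 to 4.19 scaled reads.

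Smndc1 itself held 1370.3 and 1378 scaled reads against 812 and 1126 (chromosome 19, 53389863 to 53390263). The drop matched that of windows of like level, with a level-matched change of -0.09 ± 0.062 (adjusted p = 0.476 by limma). The same was seen at Atrx, a remodeller of heterochromatin, and at its partner Daxx, a histone chaperone, with -0.06 and -0.04 (adjusted p = 0.711 and 0.779 by limma).

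The 45 gene classes were then set beside all windows, whose level-matched median was 0.00 with 50.1% above 0. A class is described as apart from windows of like level where the medians of both knockdown libraries lay on one side of both empty-vector medians. That was so upward for 21 classes and downward for 6, and the libraries overlapped for 18. The criterion is weak for a shift near 0, since the set of all windows meets it with a median of 0.0005, so sizes are given throughout. No p-value was computed for a class.

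**Figure D3:**
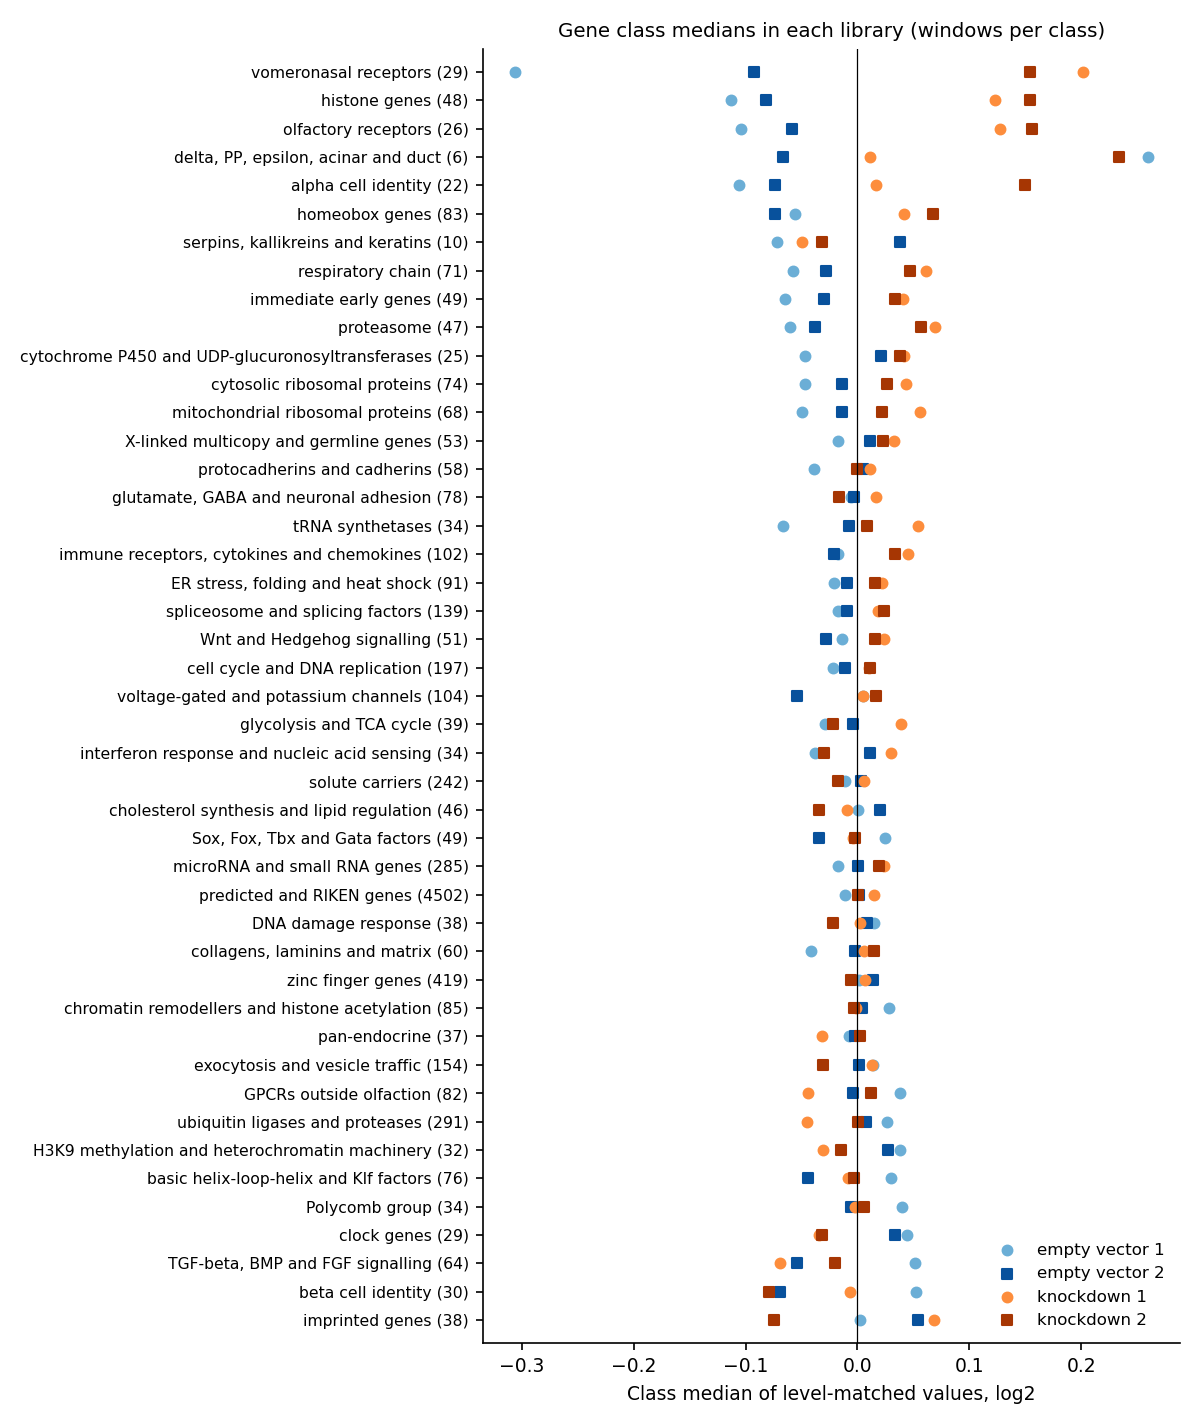
Median level-matched value in log2 (x axis) of each of 45 gene classes (y axis, number of windows in brackets) in the 4 libraries; circles and squares are replicates 1 and 2. Vomeronasal receptors, histone genes and olfactory receptors have the widest gap between the groups among classes whose groups are apart, and clock genes and the H3K9 methylation machinery have both knockdown medians below both empty-vector medians.

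Histone genes stood highest among the classes whose windows lay mostly at gene starts. Of 48 windows, 40 were above 0, with a median of 0.27. In 27 both knockdown libraries lay above both empty-vector libraries (56.2% against 27.4% of all windows) and in 4 below (8.33% against 24.4%). The class medians were -0.11 and -0.08 for the empty vector and 0.12 and 0.15 for the knockdown. These windows held few reads, with a median level of 50.7 scaled reads, and their median change on the deposited scale was 0.15, also upward. Among the 39 windows of at least 20 scaled reads the level-matched median was 0.23, and centred on library medians only it was 0.52 over all 48. Of the 39, 3 were called higher (7.69% against 2.15% of all windows tested) and none lower. H3c7, a replication-dependent H3 gene, held 49.0 and 39.9 against 74.1 and 72.7 scaled reads (0.83, adjusted p = 0.0385 by limma). H2bc4 held 15.9 and 33.7 against 59.7 and 44.7 (1.18, adjusted p = 0.0323 by limma), and H3c1 5.30 and 18.6 against 35.8 and 39.1 (1.81, adjusted p = 0.0187 by limma). Each of the 3 has its knockdown libraries above its empty-vector libraries. H3c6, at 0.71, was not called (adjusted p = 0.0930 by limma). The lowest values of the class, none of them called, were -0.67 at H4c2, -0.54 near the pseudogene H2af-ps and -0.50 at H1f1. One of the windows at H4c12 was at -0.31 and another at 0.17. Histone genes are near-identical copies, and reads may be shared between them in a way the sources used here do not state.

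The histone result came from the large cluster on chromosome 13. There 36 histone windows, spread from 21710121 to 23764116, had a median of 0.36 with 33 above 0, while the 12 histone windows elsewhere had a median of 0.07 with 7 above 0. The cluster also holds transfer RNA, receptor and other genes, and the 33 windows between the outer histone windows that were assigned to other genes had a median of 0.23 with 27 above 0. None of these 33 was called. The other 676 windows of chromosome 13 had a median of 0.01. The interval was chosen after its values were seen.

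Genes of the respiratory chain, the ribosomes and the proteasome were mostly level-matched above 0, by small amounts. Of the 71 windows of respiratory chain genes, 65 were level-matched above 0 (91.5% against 50.1% of all windows), with a median of 0.09. The 65 include a window without a read, assigned to Uqcrh-ps2. In 42 of the 71 both knockdown libraries lay above both empty-vector libraries (59.2% against 27.4% of all windows) and in 3 below (4.23% against 24.4%). The class medians were -0.06 and -0.03 for the empty vector and 0.06 and 0.05 for the knockdown. Single windows hardly passed: Uqcr10, a subunit of complex III, was the only one called, with 1339 and 1674 against 1186 and 1455 scaled reads (0.24, adjusted p = 0.0323 by limma). Atp5h of the ATP synthase had a like value of 0.25 without passing (adjusted p = 0.0749 by limma). On the deposited scale the class had a median of -0.34 against -0.37 over all windows, but its median level of 868 scaled reads is in the range where the shift was larger. With libraries centred on their medians only, without the level trend, the median was 0.02, and without empty-vector library 1 0.06.

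Ribosomal protein genes of the cytosol had a median of 0.07 (56 of 74 windows above 0), and those of mitochondria 0.06 (47 of 68). The 56 include a window without a read, assigned to Rpl39. Without empty-vector library 1 the cytosolic median was 0.04. Centred on library medians only, the medians were 0.0033 and 0.02, so the cytosolic class is apart mainly relative to windows of its high level. Rpl4 held 747 and 748 against 666 and 769 scaled reads (0.38, adjusted p = 0.00525 by limma). Rps23 was called as well, at 0.30. Mrps5, a mitochondrial ribosomal protein, was called higher at 0.25 and a window 3322 bp upstream of Mrpl58 lower at -0.57. Proteasome genes had a median of 0.08 (30 of 47 above 0), and 0.04 centred on library medians only. Of 46 windows tested, limma called 5 higher (10.9% against 2.15%) and none lower, and edgeR 6 and 1. The 5 include Psmb8, a catalytic subunit of the immunoproteasome, with 74.1 and 84.3 against 122 and 148 scaled reads (0.95, adjusted p = 0.00200 by limma). At Psmb8 both knockdown libraries were high on the deposited scale as well. Psmc2, an ATPase of the regulatory particle, was at 0.51, Psmd2 at 0.24 and Psmd12 at 0.20. The fifth, Psmc3ip at 0.35, shares the symbol prefix but encodes a meiotic recombination factor. Transfer RNA synthetases (0.04, 23 of 34 above 0) and splicing factors (0.03, 80 of 139) followed with smaller medians.

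**Figure D4:**
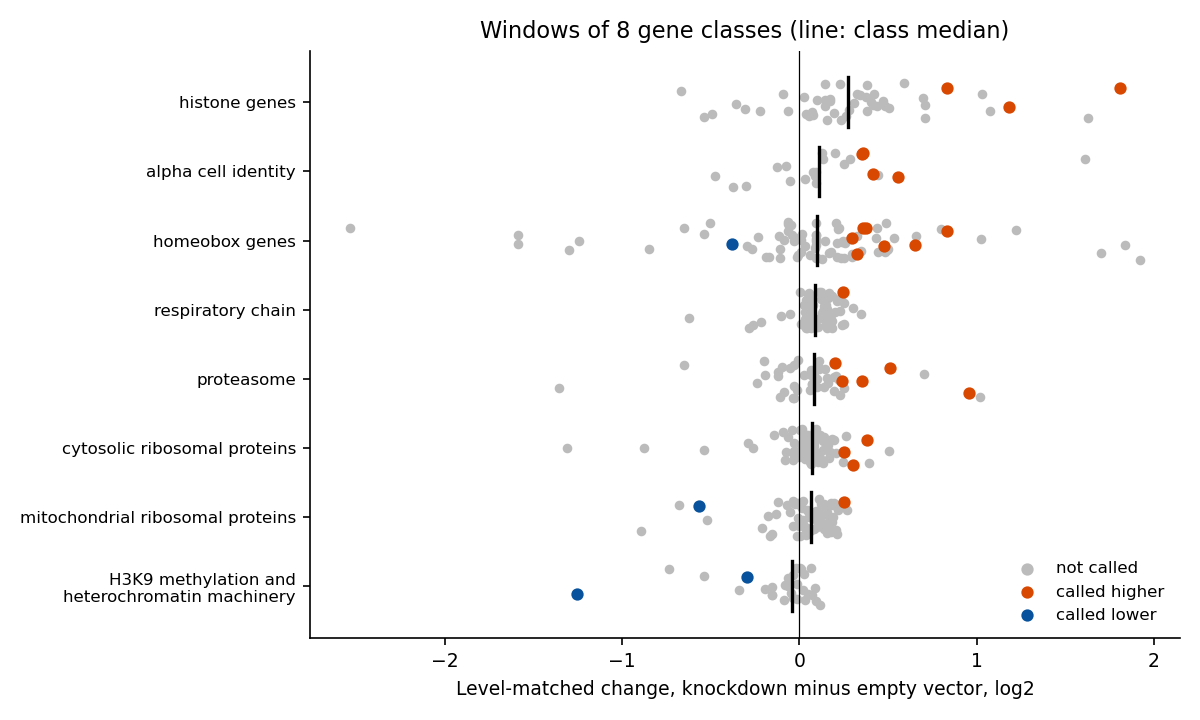
Level-matched change, knockdown minus empty vector, in log2 (x axis) for each window of 8 gene classes (y axis); vertical bars are class medians, orange and blue points are windows called higher and lower by limma among windows of at least 20 scaled reads. The respiratory chain is tight around 0.09 with 65 of 71 windows above 0, histone and homeobox genes are spread widely, and Dnmt3a is the point at -1.25 in the H3K9 class.

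Homeobox genes had a median of 0.10, with 55 of 83 windows above 0. The 55 include windows without a read at Lhx9, Lhx1, Six2, Nkx1-1, Pou2f2, Barx2 and Isl2, which are no evidence of a change. The median was 0.22 with a pseudocount of 0.1 and 0.24 with libraries centred on their medians only. The 58 windows with at least 20 scaled reads had a median of 0.15. Of these, 7 were called higher (12.1% against 2.15% of all windows tested) and 1 lower (1.72% against 2.73%). Besides Irx1 and the pair at Isl1, these were Lhx4 (0.48), Meis1 (0.33) and a window 209788 bp from Meis2 (0.83). The seventh, at 0.38, was assigned to Pax6os1, an antisense transcript of Pax6 that the symbol pattern took in, and lay 5459 bp upstream of it. Pbx2, a partner of MEIS and HOX proteins, was the lower one, with 838 and 881 against 442 and 534 scaled reads (-0.38, adjusted p = 0.00722 by limma). Its knockdown libraries were both far below its empty-vector libraries.

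The class of H3K9 methylation and heterochromatin genes holds methyltransferases, their demethylases, HP1 and HUSH proteins and DNA methyltransferases. Of its 32 windows, 2 were called lower (6.25% against 2.73% of all windows tested) and none higher by limma or edgeR. Of the 32, 11 were above 0 and the median was -0.04, with library medians of 0.04 and 0.03 for the empty vector and -0.03 and -0.02 for the knockdown. In 12 windows both knockdown libraries lay below both empty-vector libraries (37.5%, against 24.4% of all windows) and in 1, Phf8 at 0.09, above. The window at Suv39h2, an H3K9 methyltransferase, held 945 and 956 against 509 and 637 scaled reads (-0.30, adjusted p = 0.0223 by limma). At Dnmt3a, a DNA methyltransferase, the libraries held 221 and 183 against 49.0 and 105 (-1.25 ± 0.32, adjusted p = 0.000957 by limma). All 4 values at Dnmt3a are apart, and knockdown library 1 is the lowest. Tasor, of the HUSH silencing complex, was at -0.34 without passing (adjusted p = 0.151 by limma). Promoters of this class are rich in G and C, with a median of 68.3%, and in windows with a promoter value the class median went from -0.05 to -0.01 when a trend on promoter composition was also removed. Centred on library medians only it was -0.11.

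Clock genes also had both knockdown medians below, at a class median of -0.05 with 12 of 29 windows above 0 and 3 of 27 tested called lower (11.1% against 2.73%). Clock held 851 and 703 against 342 and 491 scaled reads (-0.48, adjusted p = 0.00554 by limma), Dbp, a clock output factor, 1010.2 and 1053 against 534 and 683 (-0.33), and Ciart, a repressor of the clock, 205 and 214 against 119 and 122 (-0.52). In all 3 the knockdown libraries were the low ones on the deposited scale, as in most windows. Among genes of cholesterol and lipid regulation (median 0.01 in 46 windows) 5 of 43 windows tested were called lower (11.6% against 2.73%) and 2 higher (4.65% against 2.15%). The lower ones included Srebf2, the master regulator of sterol synthesis (-0.35), Cyp51, an enzyme of that pathway (-0.19), and the liver X receptors Nr1h2 (-0.23) and Nr1h3 (-1.09). Elovl6 (0.26) and Ppargc1a (0.30) were the higher ones. Ubiquitin ligases and proteases had a median of -0.04 in 291 windows, and their share of lower calls, 2.25% (6 of 267 tested), was below that of all windows. Chromatin remodellers had a median of -0.01, with 4 of 79 called lower (5.06% against 2.73%) and 1 higher (1.27% against 2.15%). Polycomb genes had overlapping libraries, with 2 of 32 tested called lower (6.25% against 2.73%), among them Asxl1 (-0.37), and none higher.

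Sensory receptor families were among the classes with the highest medians, and few of their windows lay near a gene start. Vomeronasal receptors (29 windows, 1 of them within 1 kb of the gene start and 21 more than 10 kb from it) had a median of 0.43 and olfactory receptors (26 windows, 3 within 1 kb and 13 over 10 kb) of 0.21. Their median levels were low, at 29.2 and 23.9 scaled reads, and limma called none of their windows, while edgeR called 2 and 3 of them higher. Of 2 windows near Vmn1r35, one held 27.8 and 47.9 against 59.7 and 65.7 scaled reads (adjusted p = 0.0581 by limma). Immediate early genes had a median of 0.09 (28 of 49 above 0). Of 44 tested, 1 was called higher, Myc at 0.44 (2.27% against 2.15%), and 1 lower, Egr4 at -0.48 (2.27% against 2.73%). Zinc finger genes, whose clusters are known for H3K9me3, had a median of -0.01 in 419 windows with overlapping libraries. Of 398 tested, 7 were called higher (1.76% against 2.15% of all windows tested) and 6 lower (1.51% against 2.73%). Imprinted genes overlapped as well, at -0.08. Of 30 tested, 3 were called higher (10% against 2.15%), Zrsr1 (0.37), Gnas (0.23) and Mkrn3 (0.28), and none lower. Splicing factors had 5 of 136 windows tested called higher (3.68% against 2.15%), led by Sf3b3 of the U2 particle (0.38). In the same class 1 was called lower, Sfpq at -0.28 (0.735% against 2.73%).

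The metallothionein genes Mt1 and Mt2, noticed after the values were seen, lie next to each other on chromosome 8 and were both called higher. Metallothioneins bind zinc and other metals. Mt1 held 126 and 196 against 246 and 236 scaled reads (0.92, adjusted p = 0.00109 by limma) and Mt2 17.2 and 15.98 against 52.6 and 30.7 (1.26, adjusted p = 0.0388 by limma).

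By annotation, unprocessed pseudogenes (100 windows, median 0.27, 71 above 0) and ribosomal RNA genes (46 windows, 0.18, 28 above 0) were the highest groups. Both held few reads, with median levels of 19.1 and 35.5 scaled reads. Processed pseudogenes were at 0.05 in 934 windows, protein-coding genes at 0.00 in 12906 and antisense genes at -0.03 in 829. Windows within 1 kb of a gene start had a median of -0.0049, those from 1 to 10 kb 0.02, and those over 50 kb away 0.06. Among chromosomes the medians ran from -0.03 on chromosomes 12 and 14 to 0.03 on chromosome 13. Chromosome 11 had more calls in both directions, with 64 of its 1218 windows tested called higher (5.25% against 2.15%) and 50 lower (4.11% against 2.73%).

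Base composition moved with the level-matched change. The RefSeq table (GRCm38.p6) gave a promoter, from 250 bases before to 50 after the start, for the assigned gene of 8746 windows within 1 kb of it. Where G and C made up more than 70% of the promoter (1766 windows), the median level-matched change was -0.06 and 35.1% were above 0. At 50 to 55% (1054 windows) it was 0.03 with 58.6% above 0. The promoters of windows called lower had a median of 66.3%, those called higher 59.0%, and all with a value 62.3%. The pattern was seen in replicate 1 of each group. In the band above 70% the medians were 0.06 for empty-vector library 1 and -0.06 for knockdown library 1, against 0.0002 and -0.0014 for the libraries numbered 2. With a trend on promoter composition removed as well, limma called 420 of the 8047 windows of at least 20 scaled reads with a promoter value, against 347 by the level trend alone in the same windows. In windows with a promoter value, that trend took the respiratory chain median from 0.09 to 0.07 and the histone median from 0.26 to 0.24. Proteasome genes went from 0.09 to 0.08, cytosolic ribosomal proteins from 0.08 to 0.05 and mitochondrial ones from 0.10 to 0.08. Homeobox genes went from 0.09 to 0.10, and alpha cell identity genes, with 9 such windows, from 0.09 to 0.06. For these last 2 classes the 0.09 is the value of a window without a read.

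**Figure D5:**
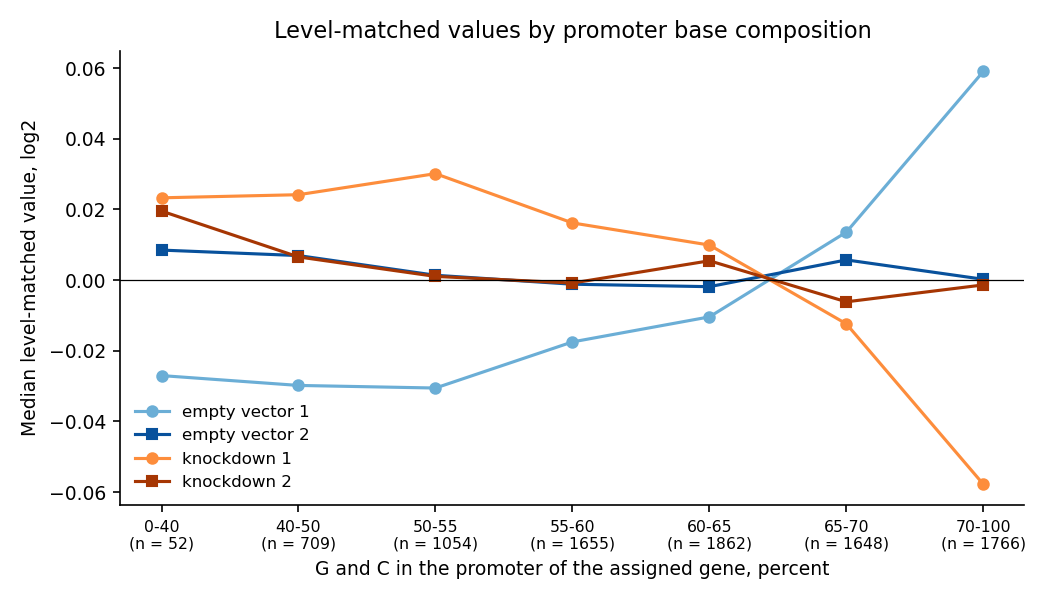
Median level-matched value in log2 (y axis) of each library for windows grouped by the share of G and C in the promoter of the assigned gene (x axis, number of windows in brackets). Empty-vector library 1 and knockdown library 1 part in opposite directions above 70%, at 0.06 and -0.06, while the libraries numbered 2 stay close to 0 in that band.

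Promoters of 5 named genes, picked after their values were seen, show this range, with each CG pair in capitals. Rpl4 (chr9:64173137-64173436, plus strand) and Uqcr10 (chr11:4704295-4704594, minus strand), both called higher, hold 40.7% and 43.3% G and C and 13 CG pairs each. Dnmt3a (chr12:3806910-3807209, plus strand) and Clock (chr5:76304499-76304798, minus strand), both called lower, hold 81.0% and 76.7% and 47 and 46 CG pairs. Dlk2 (chr17:46297678-46297977, plus strand) goes against the trend, with 78.3%, 41 CG pairs and a level-matched change of 0.79. The median of the 8746 promoters is 22 CG pairs.
Rpl4 promoter: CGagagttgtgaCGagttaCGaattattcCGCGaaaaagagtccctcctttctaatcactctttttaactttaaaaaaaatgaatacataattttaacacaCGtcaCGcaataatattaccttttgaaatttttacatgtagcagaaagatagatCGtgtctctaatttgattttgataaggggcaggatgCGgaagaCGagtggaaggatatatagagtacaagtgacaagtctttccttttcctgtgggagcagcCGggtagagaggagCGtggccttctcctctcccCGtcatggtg
Uqcr10 promoter: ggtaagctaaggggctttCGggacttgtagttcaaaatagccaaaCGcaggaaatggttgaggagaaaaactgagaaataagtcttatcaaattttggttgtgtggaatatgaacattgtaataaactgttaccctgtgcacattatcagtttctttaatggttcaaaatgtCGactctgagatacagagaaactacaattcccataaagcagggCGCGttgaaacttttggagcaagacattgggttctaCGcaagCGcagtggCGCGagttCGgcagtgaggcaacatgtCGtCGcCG
Dnmt3a promoter: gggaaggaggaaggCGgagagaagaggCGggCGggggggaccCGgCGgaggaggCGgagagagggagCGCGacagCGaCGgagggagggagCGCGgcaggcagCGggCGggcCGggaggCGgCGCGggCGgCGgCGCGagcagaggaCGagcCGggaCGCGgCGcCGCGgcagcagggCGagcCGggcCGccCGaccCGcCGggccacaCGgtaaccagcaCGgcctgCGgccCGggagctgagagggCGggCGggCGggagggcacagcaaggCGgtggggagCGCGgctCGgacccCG
Clock promoter: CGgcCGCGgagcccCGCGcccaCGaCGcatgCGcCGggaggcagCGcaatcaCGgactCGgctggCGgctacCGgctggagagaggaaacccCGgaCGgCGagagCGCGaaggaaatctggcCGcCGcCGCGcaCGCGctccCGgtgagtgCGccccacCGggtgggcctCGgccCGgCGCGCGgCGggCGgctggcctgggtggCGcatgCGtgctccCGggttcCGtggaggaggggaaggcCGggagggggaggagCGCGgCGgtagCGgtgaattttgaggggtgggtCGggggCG
Dlk2 promoter: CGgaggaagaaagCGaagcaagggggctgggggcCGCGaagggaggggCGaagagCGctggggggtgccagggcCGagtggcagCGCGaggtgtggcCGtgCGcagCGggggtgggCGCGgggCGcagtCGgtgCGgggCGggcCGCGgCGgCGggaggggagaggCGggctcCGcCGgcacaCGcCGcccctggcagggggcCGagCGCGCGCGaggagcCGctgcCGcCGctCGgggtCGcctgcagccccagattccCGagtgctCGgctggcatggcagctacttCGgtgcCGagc

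Promoter letters were also counted, and the histone class had the highest share of TATAAA among the 8 classes. Of their 32 windows with a promoter, 18 (56.2%) had the letters TATAAA on either strand, against 5.99% of the 8746, and 25 (78.1%) had CCAAT on either strand, against 39.3%. Both motifs are known from replication-dependent histone promoters. Alpha cell identity genes had a like share of CCAAT, in 7 of 9 promoters, and TATAAA in 1 of 9. In the respiratory chain class the shares of TATAAA and CCAAT were 9.26% and 42.6%, and in the H3K9 class 0 of 27 and 48.1%. A match describes letters in this stretch and not a bound factor.

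The peak lists of the authors, 1 per library, covered most called windows, as they did most windows tested. Of the 322 windows called higher, 305 (94.7%) overlapped a peak in all 4 lists, and of the 408 called lower, 354 (86.8%), against 91.3% of all 14967 windows tested. All 408 lower windows overlapped a peak in both empty-vector lists, and 364 and 365 of them did in the 2 knockdown lists. The higher windows had 305 and 314 in the empty-vector lists and 321 and 322 in the knockdown lists. For all 14967 windows tested the counts were 14126 and 14565, and 14622 and 14505. Lower windows were thus covered less often in the knockdown lists than windows tested. The lists come from the same libraries as the calls. Most called windows thus lay at sites with a peak in every library.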

How the data were processed

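H3K9me3 was measured by ChIP-seq with single reads of 50 bases in 2 empty-vector and 2 Smndc1 knockdown libraries of alphaTC1, grouped by their titles. The submitters' processing notes name MACS2 2.2.7.1, Picard 2.19.2 and Bowtie2 2.4.1 and the build mm10 (GRCm38). The deposited table gives 1 signal per window and library. All values (100%, tolerance 0.001) are whole reads times 1 factor per library, 1.324, 0.8878, 1.194 and 1.398. The sources used here do not give how the factors were set or whether inputs entered them, and inputs were not analysed here. The peak lists deposited by the authors carry a score, a fold enrichment and −log10 p and q per peak, per the file headers and values; only overlap by at least 1 base was used here.

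Log2(scaled reads + 1) was corrected per library by a loess (span 0.3) on mean level and fitted with limma 3.58.1 (R 4.3.3, intensity trend, Benjamini-Hochberg over all windows). Alternatives changed the pseudocount, windows, libraries, block, trend and tool (edgeR 4.0.16, DESeq2 1.42.0). On the recovered reads edgeR called 1167 windows. The fit used for most calls, of windows with a mean of at least 20 scaled reads, was listed as a variation of the fit of all windows, and its calls were taken up after the fit of all windows called none. In simulated data for knockdown minus empty vector (17641 windows), the fit of all windows recovered 18 of 100 windows changed 2-fold and 88 of 100 changed 4-fold, with 7 false calls. The fit from 20 scaled reads recovered 98 and 100 of them, with 13 false calls. The simulation shifted each knockdown library equally at all levels and gave all windows the same spread beyond counting noise. Only windows with a mean of at least 50 scaled reads were changed. The data had a shift that grew with level and a pattern with promoter composition, so these false calls do not measure those among the 730.

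Named windows were the 10 of smallest p per direction, filled from windows with a mean of at least 50 scaled reads since none was called, the most changed windows without overlap in each class, at most 3 per direction, and a list of endocrine genes and Smndc1. Other windows named below the class level are called windows chosen after their values were seen. Members and gene classes were chosen with earlier results of these data known. Genes of a class were taken by symbol, and promoters and miRNAs by symbol from RefSeq (8746 windows matched a promoter). Some genes of the classes are not reported here.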

Additional observations from a re-analysis of the deposited data

How the results depend on the processing

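The level-matched fit of all windows called 0 by limma, against 153 with a pseudocount of 0.1, 730 among windows of at least 20 scaled reads, 23 without an intensity trend, 4 with median centring only, 1167 by edgeR, and between 0 and 431 without 1 library. On the deposited scale 31 windows were called, against 186 with a pseudocount of 0.1 and 0 with a pseudocount of 5. The count was 2460 among windows of at least 20 scaled reads, and 0 with all 6 libraries or without an intensity trend. Without 1 library it lay between 124 (without knockdown 1) and 6337 (without knockdown 2). On the whole reads, edgeR with TMM scaling called 1534 windows but DESeq2 29. Their median log2 changes were 5.1e-15 and -0.0055, against -0.37 on the deposited scale. These 2 counts are therefore not with the shift left in. The 730 calls became 0 with all 6 libraries or without an intensity trend, 420 with a promoter composition trend over fewer windows, and between 106 and 1917 without 1 library, where the lone library of a group is assumed to vary like the rest. The median shift lay between -0.4919 and -0.2434 without 1 library. The cause of these differences was not tested. The 8 class medians kept their sign in all 88 recalculations. The named windows kept theirs too. A trend on the base composition of the windows was not run.

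With the replicate number as a block, the replicate block fits called 464 windows (all), 0 (deposited scale) and 651 (at least 20 scaled reads). The difference between replicates was hardly correlated between the groups over windows. The correlation was 0.00605 after level matching, -0.0079 before, and -0.0686 after it among windows of at least 20 scaled reads. With 2 pairs this cannot decide whether libraries of the same number share a batch.

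Depth limits the 2674 windows below 20 scaled reads, where 3 reads correspond to 2.66 to 4.19 scaled reads.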
